A study of Mus musculus with 10 samples.

Results

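Expression of 10 mouse genes of antigen presentation was followed in the livers of offspring of LIRKO parents. The genes were taken by symbol, as members of the pathway, with no threshold on their values. H2-Aa, H2-Ab1 and H2-Eb1 encode chains of classical MHC class II molecules, Cd74 and H2-DMa act in loading them, and Ciita encodes the class II transactivator. H2-K1 and B2m encode a class I heavy chain and the class I light chain, Tap1 encodes a subunit of the peptide transporter, and Nlrc5 encodes the class I transactivator. All 10 symbols were found among the 46071 genes of the count table, and all 10 were among the 14820 genes with enough reads to be tested.

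The study sequenced polyadenylated liver RNA in 10 libraries, asking how the liver of offspring differs when the mother or the father had lost the insulin receptor in hepatocytes. LIRKO mice carry IRlox/lox and Albumin-Cre+/-, so that the Albumin promoter drives Cre, and with it loss of the insulin receptor, in hepatocytes. FL offspring (3 libraries, numbered 5 to 7) had a LIRKO father and a control mother, and ML offspring (3 libraries, 8 to 10) had a LIRKO mother mated to a control male. Control offspring (4 libraries, 1 to 4) had parents that were both IRlox/lox and Albumin-Cre-/-, from control stock bred for several generations to lessen any memory of Cre. All parents thus carried the floxed receptor. The labels used here do not give the offspring's own Cre genotype, sex, age, litter or strain, nor whether each library is a separate animal, so p-values reflect only library-to-library spread.

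MHC class II molecules present peptides from endocytosed proteins to CD4+ T cells and are made mainly by dendritic cells, B cells and macrophages, which in liver include the Kupffer cells. Class I molecules present peptides from cytosolic proteins to CD8+ T cells and are made by nearly all nucleated cells, hepatocytes included. CIITA and NLRC5 do not bind DNA themselves; they are recruited to a shared promoter module, the SXY module, by RFX, CREB-family and NF-Y proteins that sit on its X1, X2 and Y boxes, and interferon-gamma induces both.

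The promoter letters are shown because this shared module is what joins the class I and class II genes to CIITA and NLRC5. RefSeq promoter windows on GRCm38.p6 matched 6 of the 10 genes (B2m, H2-K1, H2-DMa, Tap1, H2-Aa and H2-Eb1). Each sequence below is the 150 bases before the annotated start, 5′ to 3′ on the gene's strand, with matches on either strand to CCAAT (the Y box core, ATTGG when reversed), ACNGATG (the end of the X1 box), TGACG (the X2 box core) and an interferon response element in capitals.
H2-Eb1, chr17:34305717-34305866, plus strand: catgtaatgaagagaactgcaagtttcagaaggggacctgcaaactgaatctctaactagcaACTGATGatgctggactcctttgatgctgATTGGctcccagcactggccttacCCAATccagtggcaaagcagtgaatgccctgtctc
H2-Aa, chr17:34287824-34287973, minus strand: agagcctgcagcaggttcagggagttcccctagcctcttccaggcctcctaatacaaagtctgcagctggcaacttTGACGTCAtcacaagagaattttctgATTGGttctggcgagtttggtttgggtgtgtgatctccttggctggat
B2m, chr2:122147537-122147686, plus strand: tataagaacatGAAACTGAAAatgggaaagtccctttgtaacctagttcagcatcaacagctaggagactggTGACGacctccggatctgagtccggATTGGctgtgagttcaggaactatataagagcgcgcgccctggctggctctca
H2-K1, chr17:34000348-34000497, minus strand: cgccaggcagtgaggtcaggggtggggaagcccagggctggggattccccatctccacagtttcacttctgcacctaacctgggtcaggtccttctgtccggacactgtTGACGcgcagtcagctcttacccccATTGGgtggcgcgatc

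In H2-Eb1 the letters ACTGATG began 88 bases before the start and were followed by ATTGG, which ended at position -55. The pair of ACNGATG followed within 60 bases by ATTGG was found in this gene alone of the 6, and in 0.429% of the 32851 promoter windows of the table. In B2m and H2-K1, TGACG began 25 bases before ATTGG (positions -78 and -53 in B2m, -41 and -16 in H2-K1), and in H2-Aa the spacing was 26 bases (-74 and -48). TGACG in H2-Aa overlapped a second match on the other strand, which gives the capitals TGACGTCA. TGACG followed by ATTGG at a spacing of 24 to 27 bases was found in 0.237% of the windows, a spacing chosen after these sequences were seen. B2m also held a match to the interferon response element at -139 to -130. This element was searched as a strict pattern of letters, which was found in 3.44% of windows. Variants of the pattern were not searched for and stay in lower case. The lack of a match in H2-K1 and the other genes therefore does not show that they lack such an element. Taken singly, CCAAT was in 37.4%, TGACG in 20.8% and ACNGATG in 9.85% of windows. In Tap1 a TGACG began at -86 with no ATTGG after it, and the H2-DMa windows held neither pair; these matches describe letters only.

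Libraries differed in RNA quality measures before any grouping. Totals ran from 18655506 to 39379940 counts. ML 9 and control 1 stood apart. The median log2 deviation of short genes (exons under 1000 bp) from their own means was 1.67 in ML 9 and 0.51 in control 1, against -0.56 to 0.34 in the other libraries. For long genes (5000 bp or more) it was -0.61 in ML 9 and -0.29 in control 1, against -0.14 to 0.35. The share of counts on an 18S ribosomal RNA gene was 4.69% in ML 9 and 2.10% in control 1, against 0.520 to 1.67% in the other libraries. For ML, the log2 fold changes of the members and of the other genes named from the lists that ML 9 bears on are therefore also given without ML 9. The liver label fitted the hepatocyte markers, whose summed level (8 genes, Alb among them) was 71683 to 80573 CPM in FL, 64189 to 109202 CPM in ML and 69789 to 99813 CPM in controls. CPM are counts scaled by library size and TMM factor.

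B2m and H2-K1 had the highest levels of the 10 genes, the class II chains and Cd74 were far lower, and Tap1 was lower still. Per kb of exon, the mean level over all libraries was 1418 CPM per kb for B2m and 366 for H2-K1. It was 34.9 CPM per kb for Cd74, 16.2 for H2-Eb1, 16.1 for H2-Ab1 and 8.71 for H2-Aa. Tap1 was at 4.03, H2-DMa at 1.37, Nlrc5 at 1.07 and Ciita at 0.0847 CPM per kb, so Ciita was the lowest of the 10 genes. The order of Nlrc5 and H2-DMa differed between groups, with Nlrc5 at 1.11 and H2-DMa at 1.03 CPM per kb in FL, 0.507 and 2.43 in ML, and 1.47 and 0.826 in controls. H2-Eb1 and H2-Ab1 did not differ beyond their spread. In bulk liver, fewer cells of a type and less RNA per cell cannot be told apart, which holds for every gene below that hepatocytes make little of.

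None of the 10 genes passed an adjusted p of 0.05 (edgeR's quasi-likelihood test, Benjamini-Hochberg over 14820 genes) in any comparison. In FL against control 0.0135% of all genes passed, no member had an unadjusted p under 0.05 (3.53% of all genes did) and no member's groups were free of overlap (5.71% were). The 10 genes had a median log2 fold change of 0.13, with 7 above 0, against a median of -0.05 and 44.7% above 0 over all genes. In ML against control 0% of all genes passed, 5 members had an unadjusted p under 0.05, where 16.1% of all genes did, and the groups of 2 members did not overlap, where those of 5.03% did not. H2-Aa, H2-Ab1, H2-Eb1 and H2-DMa were higher (8.81% of all genes were called in that direction) and Nlrc5 was lower (7.33%). Their median in ML was 0.46, with 7 above 0, against -0.05 and 47.1% above 0 over all genes. Without ML 9, none of the 4 class II genes had an unadjusted p under 0.05 and Nlrc5 still did, where 4.37% of all genes were called. Without both ML 9 and control 1, all 5 had one, where 27.5% of all genes did. The lowest adjusted p of a member over the alternatives was 0.0600, in ML without control 1, for H2-Ab1, H2-Eb1 and Nlrc5; 35.1% of all genes then had an unadjusted p under 0.05. FL and ML share the same controls, so their contrasts with control are set side by side and not compared by overlap; the test of their difference is FL against ML.

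**Figure D1:**
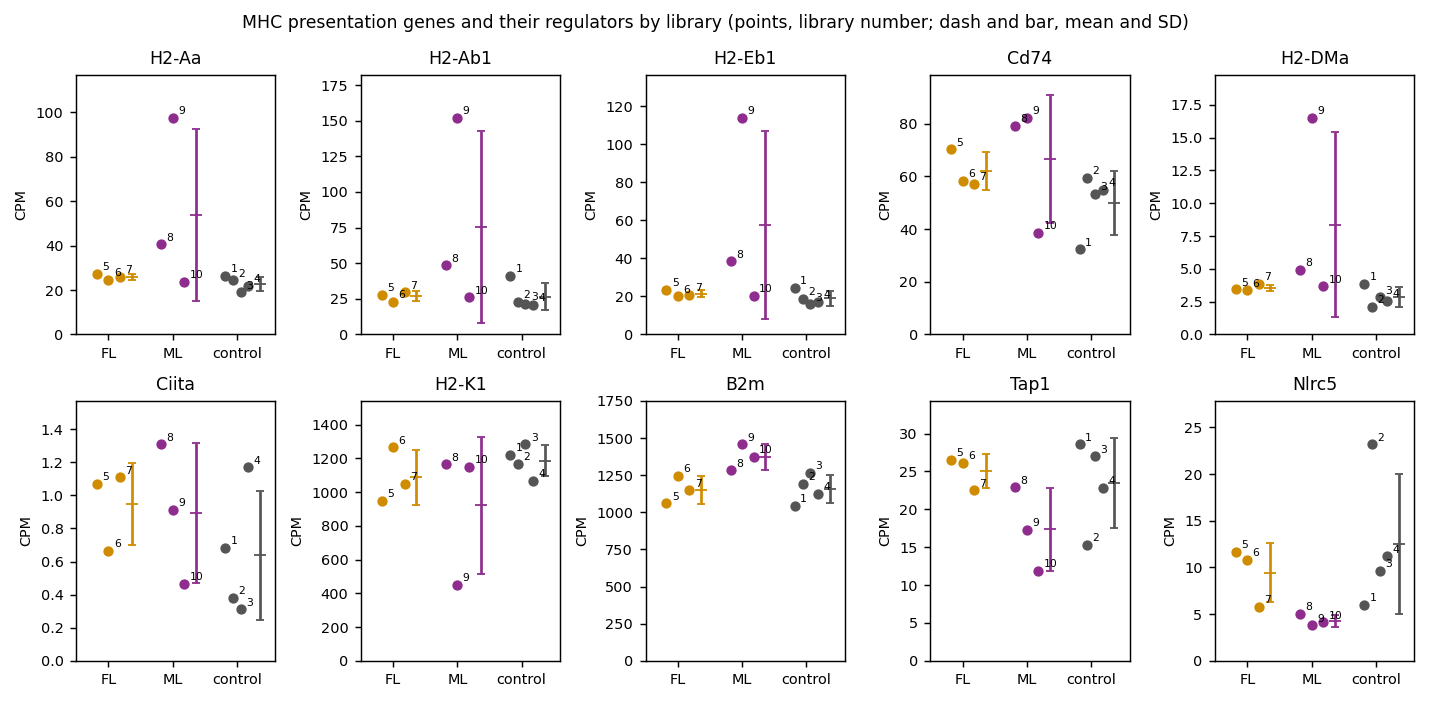
Level of each of the 10 genes in CPM (vertical axes, from 0) in FL, ML and control livers; points are libraries with their numbers, and the dash and bar beside them are the mean and SD. ML 9 is the highest library for the class II chains and H2-DMa and the lowest for H2-K1, while all 3 ML libraries lie below all others for Nlrc5 and above all others for B2m.

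The class II chain genes were higher in 2 of the 3 ML libraries, by far the most in ML 9. H2-Eb1 (ENSMUSG00000060586, chr17:34305867-34316674), the beta chain of the I-E molecule, had 23.6, 20.1 and 20.8 CPM in FL 5, 6 and 7, 38.6, 114 and 20.5 CPM in ML 8, 9 and 10, and 24.7, 18.8, 15.9 and 17.1 CPM in controls 1 to 4. ML 8 and ML 9 lay above every FL and control library, and ML 10 lay inside both groups. In log2 fold change it was at 1.59 (SE 0.47, adjusted p = 0.301) in ML and 0.17 (SE 0.47, adjusted p = 1.000) in FL against control. Without ML 9 it was at 0.64 in ML. H2-Ea-ps, the gene of the I-E alpha chain, had 0 counts in every library, so the H2-Eb1 level is one of RNA and not of I-E molecules.

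H2-Aa (ENSMUSG00000036594, chr17:34282744-34287823), the alpha chain of the I-A molecule, had 27.4, 24.5 and 25.9 CPM in FL, 40.6, 97.5 and 23.6 CPM in ML, and 26.3, 24.3, 18.9 and 21.8 CPM in controls. The FL libraries lay close together, and the lowest ML library lay among the controls. Mean levels were 25.9 ± 1.42 CPM in FL (SD, n = 3), 53.9 ± 38.7 CPM in ML (SD, n = 3) and 22.8 ± 3.19 CPM in controls (SD, n = 4), so the ML SD exceeded the distance between the ML and control means. Against control, its log2 fold change was 1.24 (SE 0.40, adjusted p = 0.301) in ML, or 0.51 without ML 9, and 0.18 (SE 0.40, adjusted p = 1.000) in FL.

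H2-Ab1 (ENSMUSG00000073421, chr17:34257689-34269419), the beta chain that pairs with H2-Aa, had 27.9, 23.1 and 29.6 CPM in FL, 48.5, 152 and 26.0 CPM in ML, and 41.1, 23, 21.6 and 20.6 CPM in controls. Control 1, one of the libraries that stood apart, exceeded all FL libraries and ML 10. H2-Ab1 was at 1.50 on the log2 scale (SE 0.50, adjusted p = 0.301) in ML and 0.02 (SE 0.50, adjusted p = 1.000) in FL. It was at 0.51 in ML without ML 9 and 0.78 without both ML 9 and control 1. Summed over the 3 chains, the level was 67.8 to 78.9 CPM in FL, 70.1 to 363 CPM in ML and 56.5 to 92.1 CPM in controls.

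The genes that load class II molecules did not all follow the chains. H2-DMa (ENSMUSG00000037649, chr17:34119541-34139101), a chain of the H2-M molecule that exchanges peptides on class II, had 3.44, 3.36 and 3.84 CPM in FL, 4.94, 16.5 and 3.66 CPM in ML, and 3.87, 2.11, 2.82 and 2.58 CPM in controls. As with the chains, ML 9 was the highest and ML 10 lay within the controls. Its log2 fold change was 1.55 (SE 0.48, adjusted p = 0.301) in ML, or 0.62 without ML 9, and 0.32 (SE 0.48, adjusted p = 1.000) in FL. H2-DMb1, which encodes an H2-M beta chain, was at 1.64 (SE 0.56, adjusted p = 0.301) in ML and 0.64 without ML 9.

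Cd74 (ENSMUSG00000024610, chr18:60803848-60812652), the invariant chain that guards the class II groove, had 70.2, 58.4 and 57.2 CPM in FL, 79.2, 82.2 and 38.6 CPM in ML, and 32.3, 59.5, 53.4 and 54.9 CPM in controls. It showed no separate peak in ML 9, and control 1 was the lowest library of all. On the log2 scale Cd74 was at 0.41 (SE 0.32, 95% interval -0.29 to 1.12, adjusted p = 0.493) in ML and 0.31 (SE 0.32, interval -0.40 to 1.02, adjusted p = 1.000) in FL. In ML it lay at 0.25 without ML 9 and at -0.088 with sample quality weights in limma-voom.

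The ratio of Cd74 to the chains therefore differed between libraries. Cd74 had 2.51, 2.53 and 1.94 counts per H2-Ab1 count in FL, 1.63, 0.542 and 1.49 in ML, and 0.785, 2.59, 2.47 and 2.67 in controls. All ML libraries lay below all FL libraries and below controls 2 to 4, and control 1 lay between ML 9 and ML 10. The libraries with the 2 lowest ratios, ML 9 and control 1, were those with the highest level of short genes and the highest 18S share; Cd74 has 1679 bp of exon and H2-Ab1 has 2568 bp. The part of RNA quality in this ratio was not tested.

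**Figure D2:**
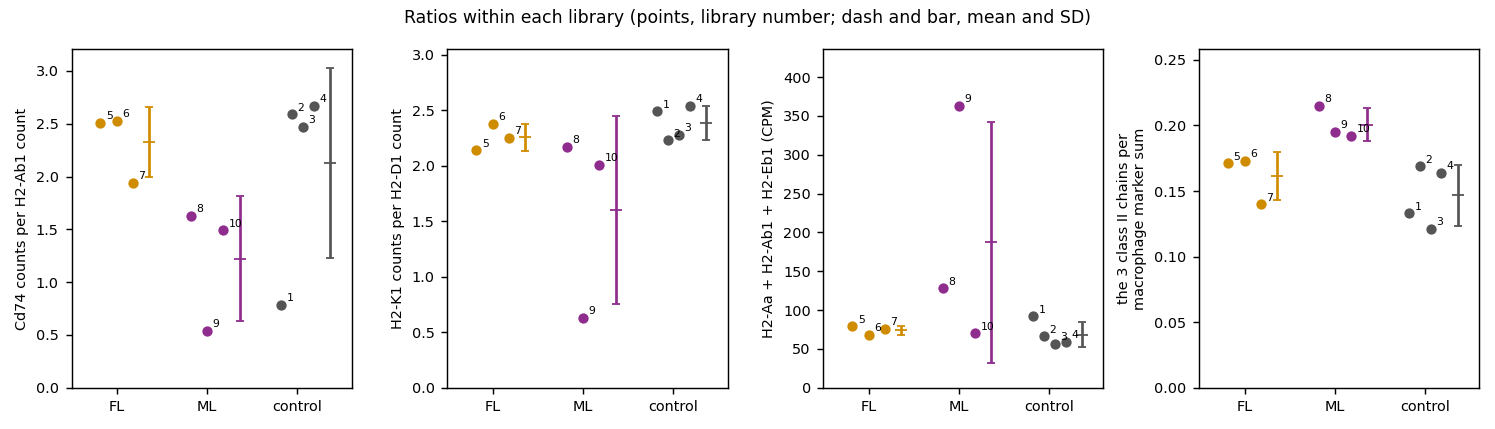
Ratios and a sum within each library for FL, ML and control livers (points are libraries with their numbers, dash and bar are mean and SD): Cd74 counts per H2-Ab1 count, H2-K1 counts per H2-D1 count, the summed CPM of H2-Aa, H2-Ab1 and H2-Eb1, and that sum divided by the summed CPM of 12 macrophage markers. ML 9 has the lowest ratios in the first and second panels (0.542 and 0.629) and the highest sum in the third (363 CPM), and in the fourth all ML libraries (0.192 to 0.215) lie above all others, a separation not found when the sum is divided by Clec4f or by general leukocyte markers.

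Ciita (ENSMUSG00000022504, chr16:10480059-10528418), the master regulator of class II transcription, had the fewest reads of the 10 genes, 23 to 38 counts in FL, 14 to 50 counts in ML and 12 to 52 counts in controls. It had 1.07, 0.666 and 1.11 CPM in FL, 1.31, 0.913 and 0.465 CPM in ML, and 0.684, 0.382, 0.311 and 1.17 CPM in controls. The groups overlapped, and ML 9, the library with the highest class II chains, lay in the middle for Ciita. The fitted log2 difference was 0.57 (SE 0.55, interval -0.63 to 1.78, adjusted p = 1.000) in FL and 0.50 (SE 0.56, interval -0.72 to 1.71, adjusted p = 0.638) in ML. With 1 library left out at a time it ran from 0.34 to 1.08 in FL and from 0.08 (without ML 8) to 1.00 (without control 4) in ML, and it was at 0.51 in ML without ML 9. The interval in ML is wide enough to hold the log2 fold changes of the class II chains.

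Of the class I genes, B2m separated ML from both other groups by a small margin. B2m (ENSMUSG00000060802, chr2:122147686-122153083), the light chain of every class I molecule, had 1061, 1244 and 1147 CPM in FL, 1283, 1459 and 1375 CPM in ML, and 1044, 1193, 1264 and 1125 CPM in controls. All ML libraries lay above all FL and control libraries; in ML against control 2.17% of all genes were non-overlapping in this direction. B2m was at 0.25 on the log2 scale (SE 0.25, interval -0.29 to 0.78, adjusted p = 0.592) in ML and 0.22 without ML 9, and it turned to -0.47 once each library's trend over exon length and GC was removed. B2m is short, with 860 bp of exon, and the median log2 fold change of the 470 tested genes within 1.2 times that length was 0.70 in ML. In FL, B2m was at -0.01 (SE 0.25, interval -0.55 to 0.53, adjusted p = 1.000).

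H2-K1 (ENSMUSG00000061232, chr17:33996017-34000347), a classical class I heavy chain, had 948, 1266 and 1048 CPM in FL, 1164, 451 and 1149 CPM in ML, and 1221, 1168, 1284 and 1068 CPM in controls. ML 9 was the lowest library by far, and the other ML libraries lay within the controls. H2-K1 was at -0.36 on the log2 scale (SE 0.34, adjusted p = 0.569) in ML, -0.02 without ML 9, and -0.12 (SE 0.34, adjusted p = 1.000) in FL.

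H2-D1, another classical heavy chain on chromosome 17, did not share the low value of ML 9. It had 443, 532 and 465 CPM in FL, 537, 717 and 571 CPM in ML, and 491, 524, 563 and 420 CPM in controls. H2-K1 thus had 2.14 to 2.38 counts per H2-D1 count in FL, 0.629 in ML 9, 2.01 and 2.17 in the other ML libraries, and 2.23 to 2.54 in controls. Class I heavy chains share near-identical stretches, so reads could have been split between them in counting in any library. Whether this bears on the values of ML 9 was not tested.

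Tap1 (ENSMUSG00000037321, chr17:34187553-34197225), which carries peptides into the endoplasmic reticulum with Tap2, had 26.5, 26.1 and 22.5 CPM in FL, 22.9, 17.3 and 11.9 CPM in ML, and 28.6, 15.3, 27 and 22.8 CPM in controls. The ML range reached lower than the others but overlapped both. Tap1 was at -0.43 on the log2 scale (SE 0.31, interval -1.12 to 0.26, adjusted p = 0.464) in ML, or -0.41 without ML 9, and 0.10 (SE 0.31, interval -0.58 to 0.77, adjusted p = 1.000) in FL.

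Nlrc5 was the one member that lay lower in every ML library than in every other library. Nlrc5 (ENSMUSG00000074151, chr8:94434356-94527272), which drives class I genes, B2m and Tap1 as CIITA drives class II, had 11.7, 10.8 and 5.79 CPM in FL, 5.02, 3.78 and 4.12 CPM in ML, and 5.98, 23.2, 9.65 and 11.2 CPM in controls. The ML libraries were tight, at 4.31 ± 0.638 CPM (SD, n = 3), while control 2 had more than 2 times the level of any other control and FL 7 and control 1 came near the ML range. In ML against control 2.86% of all genes were non-overlapping in this direction. In log2 fold change it was at -1.54 (SE 0.46, interval -2.54 to -0.53, adjusted p = 0.301) in ML and -0.41 (SE 0.44, interval -1.38 to 0.55, adjusted p = 1.000) in FL.

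The log2 fold change of Nlrc5 in ML kept its sign under 22 of 22 alternatives, with sizes that differed. It was -1.44 without ML 9, -1.05 without control 2, -0.99 with the length and GC trend removed and -0.82 with a surrogate variable, where its unadjusted p was 0.0891 and no longer under 0.05. Nlrc5 is long, with 8493 bp of exon, and the 1795 tested genes within 1.2 times that length had a median of -0.36 in ML, with 3.9% of them below Nlrc5. Of the class I genes that NLRC5 is known to drive, H2-K1 was at -0.36, B2m at 0.25 and Tap1 at -0.43 in ML, none past the threshold.

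**Figure D3:**
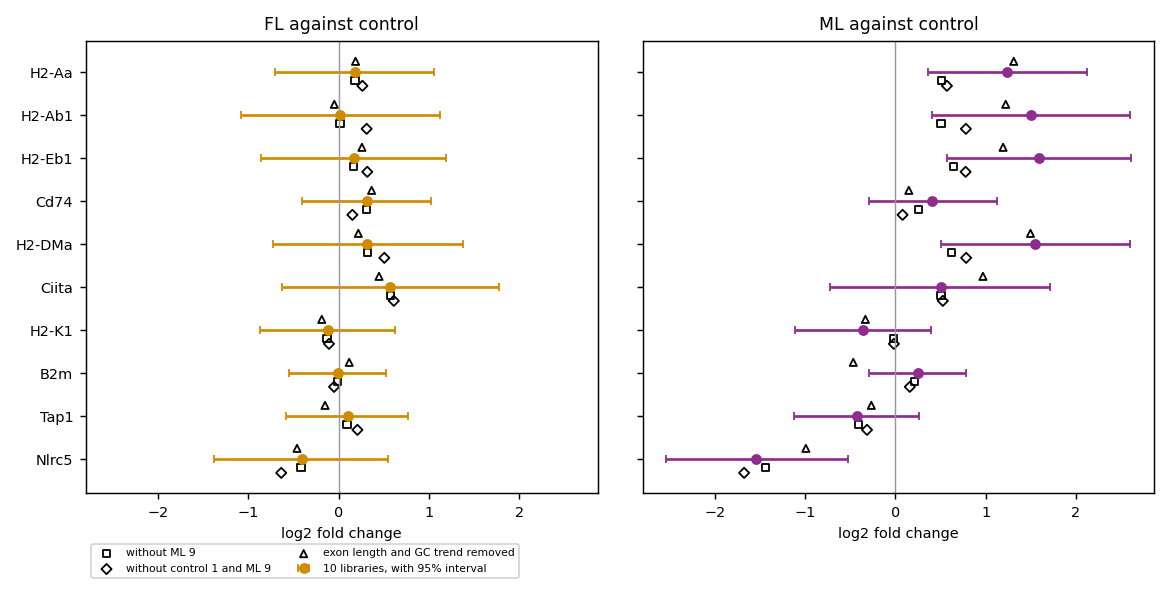
Log2 fold change of each gene in FL against control (left) and ML against control (right), from 10 libraries with 95% intervals (filled circles), without ML 9 (squares), without control 1 and ML 9 (diamonds) and with the length and GC trend removed (triangles). In ML the 3 class II chains and H2-DMa lie at 1.24 to 1.59 with all libraries and at 0.51 to 0.64 without ML 9, while Nlrc5 stays at -0.99 or lower in all 4.

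Exon length moved with the ML contrast over all genes. The 5% of tested genes with the shortest exons (median 420 bp) had a median log2 fold change of 1.08 in ML and -0.33 in FL, and the 5% with the longest (median 14646 bp) had medians of -0.63 in ML and 0.03 in FL. Set against tested genes within 1.2 times their own length, H2-DMa lay above 98.8% of them in ML, H2-Aa above 97.5%, H2-Ab1 above 97.1%, H2-Eb1 above 96.4% and Ciita above 94.9%, while Cd74 lay above 50.9%, Tap1 above 35.8%, B2m above 32.3% and H2-K1 above 22.4%. These exon lengths are unions over all annotated transcripts (3798 bp over 4 transcripts for H2-Aa, 3448 bp over 8 for H2-DMa). A single transcript can be shorter, so the match is on the union and not on the RNA made in liver. The part of length in the member values was not tested further. With the length and GC trend removed, the 4 class II genes lay at 1.19 to 1.50 in ML and kept unadjusted p-values under 0.05, where 13.0% of all genes were called; with a surrogate variable none did, where 2.56% were called.

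**Figure D4:**
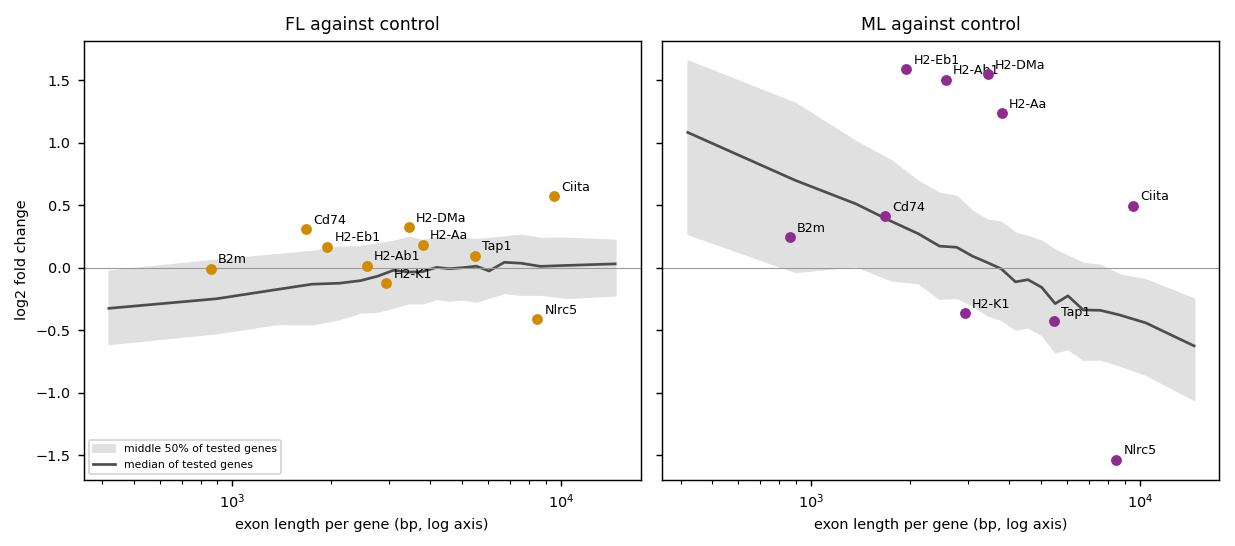
Log2 fold change of the 10 genes (labelled points) against exon length in bp (log axis) for FL against control (left) and ML against control (right); the line and band are the median and middle 50% of tested genes in 20 bins of length. In ML the line runs from 1.08 at the short end to -0.63 at the long end, with H2-Eb1, H2-Ab1, H2-DMa, H2-Aa and Ciita above the band, Nlrc5 well below it, H2-K1 just below it, and Cd74 on the line.

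FL and ML were then compared with each other, which tests whether the 2 parental contrasts differ. No member passed; 0.00675% of all genes did. An unadjusted p under 0.05 was reached by 5 members and by 20.0% of all genes. Nlrc5 was higher in FL at an unadjusted p under 0.05 (7.59% of all genes were called higher) and H2-Aa, H2-Ab1, H2-Eb1 and H2-DMa were lower (12.4%). The log2 fold change of FL against ML was 1.13 (SE 0.48, adjusted p = 0.239) for Nlrc5, -1.42 (SE 0.51, adjusted p = 0.238) for H2-Eb1 and -1.49 (SE 0.55, adjusted p = 0.238) for H2-Ab1. H2-Aa was at -1.05 and H2-DMa at -1.23. The 10 genes had a median of -0.18, with 4 above 0, against 0.04 and 52.1% above 0 over all genes. Groups did not overlap for Nlrc5 (higher in FL, as were 16.6% of all genes) and B2m (lower in FL, as were 15.1%), 2 of the 10 genes against 31.7% of all genes. Without ML 9, no member had an unadjusted p under 0.05, where 4.79% of all genes did, and Nlrc5 was between 0.95 and 1.39 over all libraries left out in turn.

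The wider pathway was read from lists of genes with known roles, none of which held a gene past the adjusted threshold in FL or ML against control. Of 11 tested class II genes, 11 lay above 0 in ML (median 0.52) and 5 of them were higher at an unadjusted p under 0.05, where 47.1% of all genes lay above 0 and 8.81% were called higher. In FL 7 lay above 0 (median 0.17) and 0 were called, where 44.7% of all genes lay above 0 and 3.53% were called. Without ML 9, 8 of the 11 lay above 0 in ML (median 0.25) and 0 were called, where 4.37% of all genes were called. This list includes the class II members given above, and of the calls in ML only H2-DMb1 was not a member. Without the members, 6 tested genes remained. They had a median of 0.29 in ML, with 6 above 0 and 1 called higher, and of -0.02 in FL, with 2 above 0 and 0 called. The lysosomal enzymes Ctss and Ifi30, which process antigen and invariant chain, were at 0.16 and 0.37 in ML and both at 0.25 in FL, with adjusted p of 0.494 or more. Without ML 9 they were at 0.18 and 0.06 in ML.

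Among class I genes, those of the immunoproteasome were highest in ML 9. Of 14 genes of the light chain, peptide supply and loading, 5 were called higher in ML at an unadjusted p under 0.05 and 0 without ML 9, where 8.81% of all genes were called higher with ML 9 and 4.37% were called in either direction without it. They were the immunoproteasome subunits Psmb8, Psmb9 and Psmb10 and the proteasome activators Psme1 and Psme2. With the length and GC trend removed, 1 of the 14 genes was called higher (median -0.01), where 13.0% of all genes were called. With a surrogate variable 0 were, where 2.56% of all genes were called. Psmb8 had 25.2, 32.3 and 32.1 CPM in FL, 35.8, 158 and 38.3 CPM in ML, and 39.7, 16.8, 27.4 and 21 CPM in controls, with ML 8 and ML 10 inside the control range. Its log2 fold change was 1.56 (SE 0.50, adjusted p = 0.301) in ML and 0.51 without ML 9. Psmb9, beside Tap1 on chromosome 17, had 33.4, 163 and 29.7 CPM in ML, against 8.18 to 55.4 CPM in controls.

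The 14 tested class I heavy chains had a median of -0.01 in ML, with 7 above 0, and -0.17 in FL, with 4 above 0. Over all genes 47.1% lay above 0 in ML and 44.7% in FL. The nonclassical H2-T23, a ligand of NK cell receptors, had 207, 254 and 234 CPM in FL, 308, 923 and 323 CPM in ML, and 424, 221, 264 and 191 CPM in controls; its log2 fold change was 0.91 (SE 0.42, adjusted p = 0.312) in ML and 0.21 without ML 9. H2-T22, a ligand of some gamma-delta T cell receptors, was at 0.86 (SE 0.40, adjusted p = 0.313) in ML and 0.37 without ML 9. H2-Q1 was the 1 heavy chain of 14 with an unadjusted p under 0.05 in FL, where 3.53% of all genes were called. It was at -1.24 (SE 0.56, adjusted p = 1.000). H2-Q10, a liver-secreted class I molecule, had 1743 to 2526 CPM in FL, 2227 to 3476 CPM in ML and 2385 to 4261 CPM in controls.

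Of the 17 regulators, Irf1 stood out in FL. Irf1, a transcription factor induced by interferon-gamma that acts on Ciita and on class I promoters, had 33.7, 41.0 and 25.2 CPM in FL, 24.5, 31.8 and 10.6 CPM in ML, and 14.8, 13.4, 9.03 and 14.3 CPM in controls. All FL libraries lay above all controls, as did those of 2.79% of all genes, and ML 10 lay among the controls. Irf1 was at 1.37 on the log2 scale (SE 0.37, adjusted p = 0.772) in FL and 0.79 (SE 0.37, adjusted p = 0.313) in ML, or 0.46 without ML 9. The DNA-binding partners of the SXY module were measured too. Rfx5 was at -1.21 (SE 0.77) in ML, with 0.0652 CPM in ML 9 and with ML 8 and ML 10 (2.73 and 1.92 CPM) inside the control range of 1.2 to 5.45 CPM, and it was at -0.67 without ML 9. Creb1, Rfxap and Nfya were at 0.50, 0.46 and 0.50 in FL, none past the threshold.

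Genes that interferon-gamma induces, as it does both transactivators, were listed as well. Of 19, 15 lay above 0 in FL (median 0.35) and 13 in ML (median 0.15), with Irf1 and Cxcl10 called higher at an unadjusted p under 0.05 in FL and Cxcl9 in ML. Over all genes 44.7% lay above 0 in FL and 47.1% in ML, and 3.53% were called in FL and 8.81% were called higher in ML. Cxcl9, a chemokine, had 7.63, 7.01 and 9.90 CPM in FL, 17, 32.7 and 11 CPM in ML, and 18.6, 6.55, 8.59 and 5.34 CPM in controls; control 1 exceeded 2 of the ML libraries, and the log2 fold change in ML was 0.54 without ML 9. Cxcl10 was at 0.85 (SE 0.38, adjusted p = 1.000) in FL.

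The summed level of markers of macrophages, which make class II, was also highest in ML 9, as were the sums of several other marker lists given below. The summed level of 12 Kupffer cell and macrophage markers was 392 to 546 CPM in FL, 593, 1862 and 364 CPM in ML 8, 9 and 10, and 363 to 694 CPM in controls, so ML 9 had the highest sum, as for the chains. ML 9 was the highest library for 10 of the 12 markers, and the like share over all genes was not counted. Marco and Csf1r were the others, at -1.2 and -0.17 on the log2 scale in ML, or -1.35 and -0.31 without ML 9. Of the 12 markers, 9 lay above 0 in ML (median 0.63), where 47.1% of all genes did, and 3 were called higher at an unadjusted p under 0.05 (the complement genes C1qa and C1qb, and the lysozyme gene Lyz2), where 8.81% of all genes were called higher. Without the library ML 9 the median was 0.04 with 0 called, and in FL it was -0.02 with 0 called. With the length and GC trend removed the median in ML was 0.28 with 0 called, where 13.0% of all genes were called. C1qa, C1qb and Lyz2 are short, with 1040, 1088 and 1316 bp of exon. Bins of tested genes with median exons of 894 and 1367 bp had median log2 fold changes of 0.70 and 0.51 in ML. The part of exon length in the marker values was not tested. Clec4f, a Kupffer cell marker, had 94.0, 91.6 and 120 CPM in FL, 134, 501 and 86.6 CPM in ML, and 182, 94.1, 105 and 78.5 CPM in controls.

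Other antigen-presenting cells left low signals. Dendritic cell markers summed to 6.78 to 8.78 CPM in FL, 5.43 to 9.85 CPM in ML and 6.50 to 10.5 CPM in controls. B and plasma cell markers summed to 2.7 to 3.74, 3.13 to 12.8 and 1.71 to 9.97 CPM in FL, ML and controls. T and NK cell markers summed to 4.72 to 7.90, 6.46 to 20.3 and 4.48 to 7.45 CPM, and general leukocyte markers to 107 to 129, 92.8 to 157 and 95.3 to 133 CPM in the same order of groups. Markers of sinusoidal endothelial cells, which can also present antigen, summed to 165 to 194, 123 to 265 and 173 to 269 CPM in FL, ML and controls. Cholangiocyte markers summed to 33.3 to 69.4, 22.5 to 69.6 and 29.0 to 56.0 CPM, and stellate cell markers to 217 to 290, 236 to 537 and 277 to 330 CPM. Of 6 cholangiocyte markers, Krt19, Krt7 and Cldn7 were called higher in ML at an unadjusted p under 0.05, with ML 9 and without it. Their log2 fold changes in ML were 2.83, 2.08 and 1.56, or 3.04, 2.10 and 1.71 without ML 9. For each of them ML 10 lay within the control range. ML 9 had the highest sum of all libraries for B and plasma cell (12.8 CPM), T and NK cell (20.3 CPM) and general leukocyte markers (157 CPM). It was also highest for stellate cell (537 CPM) and hepatocyte markers (109202 CPM), but not for dendritic cell, endothelial or cholangiocyte markers. By single marker, ML 9 was highest for 6 of 8 B and plasma cell, 8 of 12 T and NK cell and 2 of 8 hepatocyte markers. It was highest for 4 of 8 general leukocyte, 4 of 9 dendritic cell, 4 of 7 stellate cell, 2 of 8 endothelial and 0 of 6 cholangiocyte markers. The general leukocyte markers Ptprc, Laptm5, Rac2 and Lcp1 were not highest in ML 9. The like share over all genes was not counted. In ML, 3 of 9 tested T and NK cell markers (Cd3d, Gzma and Nkg7) were also called higher at an unadjusted p under 0.05. So were 1 of 8 general leukocyte markers (Cd52) and 1 of 7 stellate cell markers (Des), where 8.81% of all genes were called higher. Without ML 9 these 3 lists had 0 called higher, where 4.37% of all genes were called in either direction. No marker of these lists was at 0 in every library, and the part of cell content in the class II values was not tested.

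The 3 class II chains were also divided by macrophage and leukocyte markers, and the picture differed with the divisor. The ratio to the macrophage marker sum was 0.171, 0.173 and 0.140 in FL, 0.215, 0.195 and 0.192 in ML, and 0.133, 0.169, 0.121 and 0.164 in controls. Means were 0.161 ± 0.0185 in FL (SD, n = 3), 0.201 ± 0.0125 in ML (SD, n = 3) and 0.147 ± 0.0234 in controls (SD, n = 4), and the groups were not tested on this ratio, which was chosen with the values known. All ML libraries lay above all others for this ratio, and ML 9, the extreme library for each sum, lay within the range of the other ML libraries. With Clec4f alone as divisor the groups overlapped, with ML 9 at 0.725 against 0.839 in FL 5 and 0.757 in control 4. With general leukocyte markers as divisor ML 9 was the highest at 2.32, and ML 10, at 0.755, lay below control 1, at 0.967.

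The genes most like the class II set over the 10 libraries were found by Pearson's r on log2 CPM with the mean of H2-Aa, H2-Ab1, H2-Eb1 and Cd74. They were Tnfaip8l2 (r = 0.950), Fcgr3 (0.944), Oxct1 (0.944), Casp1 (0.937) and Trim72 (0.936). Without ML 9 the same genes had r of 0.694 to 0.778 over the other libraries, lower than with it for each, and they ranked 37 to 94 among all tested genes. For Nlrc5 they were Srrm4 (0.985), 9830144P21Rik (0.980), Unk (0.968), Lpin3 (0.966) and Csnk1e (0.957), and without ML 9 they had r of 0.949 to 0.991. These values describe libraries that also share depth and exon length trends.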

How the data were processed

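Per the labels' protocols, liver RNA was selected for poly(A), and libraries that keep strand were read from both ends. The authors deposited raw counts of reads per gene for 10 libraries; STAR, featureCounts and the GRCm38 build are named in the submitters' processing notes. Tool versions, the gene annotation and whether counting used strand are not given in the sources here, so reads of overlapping, antisense or near-identical genes are uncertain. Of 46071 genes, 45229 matched GENCODE M21 by identifier, which gave symbols, coordinates and union exon lengths.

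Genes were filtered with filterByExpr (minimum count 10), scaled by TMM and tested with edgeR 4.0.16 (R 4.3.3), a robust quasi-likelihood F test, two-sided, with a coefficient for each of the 3 groups and 7 residual degrees of freedom. P-values were adjusted by Benjamini-Hochberg over all 14820 genes. The common biological coefficient of variation was 0.448. SE is the log2 fold change divided by the square root of F. The procedure was checked on simulated counts. Alternatives were DESeq2 1.42.0, limma-voom 3.58.1 with and without quality weights, other scalings and filters, only the groups compared, a surrogate variable (sva 3.50.0), removal of each library's trend over exon length and GC, a looser threshold, and libraries left out.

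The 10 genes, 5 pathway lists and 9 marker lists were chosen with earlier results of these data known. Beside the 10 genes, the text names up to 4 genes per pathway list and comparison with the lowest p, defining cell markers and the 5 genes likest to each pattern. H2-D1, H2-Q10, Psmb9, C1qa, C1qb, Lyz2, Krt19, Krt7, Cldn7, Gzma, Nkg7, Cd52, Des and, below, H2-K2 were named after their values were seen. Promoter sequences are from RefSeq (GRCm38.p6).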

Additional observations from a re-analysis of the deposited data

Results flagged for a closer look

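Control 1 lay far from the other 3 controls, by a gap test on groups of 4, in 11 of the values given above; chance flags about 1 in 20 groups, and these values share 1 library. In CPM these were H2-Ab1 (41.1, against 20.6 to 23 in the other controls), H2-DMb1 (5.36), H2-Q10 (4261), Psme1 (136), Psme2 (193), Lyz2 (137) and Cd52 (7.41). The median deviation was 0.510 for genes with under 1000 bp of exon and -0.290 for genes with 5000 bp or more. Cd74 had 0.785 counts per H2-Ab1 count, and the 3 class II chains together had 2.86 counts per Cd74 count. The groups of 3 libraries could not be tested this way, ML 9 included.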

How the results depend on the processing

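Of 657 log2 fold changes of the 10 genes under alternatives, 620 kept direction and side of the threshold and 37 reversed, the largest at 0.584 and none under an adjusted p of 0.436; no member passed under any, the lowest adjusted p being 0.0600, without control 1 in ML. In FL, H2-Ab1 was at -0.012 with upper quartile factors, -0.007 with a minimum count of 50 and -0.047 with the trend removed; Tap1 at -0.15 with the trend removed; H2-K1 at 0.007 with totals only; and B2m at 0.118 with totals only or the trend removed and 0.024 with no filter. In ML, Cd74 was at -0.088 with quality weights and B2m at -0.467 with the trend removed. In FL against ML, Cd74 was at 0.268 with quality weights or totals only, 0.218 with the trend removed and 0.074 without control 1 and ML 9; H2-K1 at -0.031, -0.065 with a surrogate variable and -0.089 without both libraries; B2m at 0.112 with totals only and 0.584 with the trend removed; H2-DMa at 0.011 with a surrogate variable; and Ciita at -0.521 with the trend removed. The cause was not tested. Totals only moved the median of all genes by 0.13 in FL, -0.20 in ML and 0.33 in FL against ML.

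Leaving out libraries in turn gave, in FL, -0.086 to 0.31 for H2-Ab1, -0.064 to 0.05 for B2m, -0.062 to 0.21 for Tap1 and -0.64 to 0.069 for Nlrc5, and in FL against ML -0.37 to 0.054 for Cd74, -0.235 to 0.50 for Ciita and -0.11 to 0.44 for H2-K1. Ciita was not tested at a minimum count of 50.

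Over all genes, edgeR called 2 in FL (54 with DESeq2, 1 with voom or no filter, 4 with quality weights, 0 to 3 leaving out libraries). It called 0 in ML, with 2392 at an unadjusted p under 0.05 (669 without ML 9, 5177 without control 1), 56 with DESeq2, 3 with no filter and 0 to 1 leaving out libraries, the 1 without control 1. It called 1 in FL against ML (2 at a threshold of 0.1, with no filter or the trend removed, 31 with DESeq2, 4 with quality weights, 0 with totals only or the compared groups only, 0 to 2 leaving out libraries).

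No paired analysis was possible because the replicate numbers run from 1 to 10 with none shared between groups. Groups of 3 and 4 libraries limit the precision, most of all for Ciita, which had 12 to 52 counts a library.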

Other observations

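H2-K2, a class I pseudogene beside H2-K1 on chromosome 17, had 4.11, 12.3 and 2.62 CPM in FL 5, 6 and 7, 2.21, 2.61 and 2.36 CPM in ML, and 5.93, 9.78, 2.04 and 9.73 CPM in controls 1 to 4. FL 6, control 2 and control 4 were high and crossed the groups. H2-K1 did not follow that pattern.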
